A study of Homo sapiens with 12 samples.

Results

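The core genes of nucleotide excision repair were followed here, namely the 10 genes XPA, XPC, ERCC1, ERCC2, ERCC3, ERCC4, ERCC5, ERCC6, DDB1 and DDB2. These are repair factors that have been proposed to act with GADD45a in DNA demethylation. They were followed through all probes of the array that the probe annotation assigns to them, which gave 16 of 47323 probes for the 10 genes. The level of each was measured in HEK293T, a human embryonic kidney line that carries the SV40 large T antigen, a protein that binds p53. The 12 samples formed 6 groups of 2 independently transfected cultures. Control cells received the empty vector, and the other groups received plasmids for GADD45a, for ING1b, for GADD45a and ING1b together, for an ING1b without its PHD domain (ING1bΔPHD), or for GADD45a and ING1bΔPHD together. GADD45a is a stress-induced protein, and ING1b is a chromatin reader whose PHD finger binds methylated lysine 4 of histone H3. All cells were harvested 48 h after transfection with X-tremeGENE 9, so every group, the control included, had been transfected. The share of cells that took up a plasmid is not given in the sources used here, and each array averages over transfected and untransfected cells. A lower value can come from fewer cells that contain a transcript or from less of it per cell, and these cannot be told apart in bulk RNA.

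Nucleotide excision repair removes bulky, helix-distorting lesions such as those made by ultraviolet light, by cutting out a short stretch of the damaged strand and filling the gap. XPC finds the distortion across the genome, helped by the DDB1 and DDB2 complex at ultraviolet lesions, while ERCC6 acts where RNA polymerase stalls on a transcribed strand. ERCC2 and ERCC3, the helicase and translocase of TFIIH, then open the DNA, XPA checks the lesion, and the nucleases ERCC5 and ERCC1-ERCC4 make the incisions. XPC and DDB2 are also known as p53 targets in human cells.

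The sequences upstream of XPC and DDB2 are shown because these were the genes with the largest differences between arrays with and without GADD45a, and because the proposed role of the pathway concerns methylation at CG sites, printed here in capitals. Each is the 200 bases before the gene's RefSeq start on GRCh38.p14, read on the strand of the gene, for XPC chr3:14178602-14178801 on the minus strand and for the first of DDB2's starts chr11:47214254-47214453 on the plus strand.
XPC: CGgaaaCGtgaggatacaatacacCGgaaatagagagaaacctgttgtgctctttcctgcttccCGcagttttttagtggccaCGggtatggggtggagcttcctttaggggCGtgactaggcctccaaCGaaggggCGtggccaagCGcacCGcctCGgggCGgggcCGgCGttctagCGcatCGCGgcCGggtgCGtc
DDB2: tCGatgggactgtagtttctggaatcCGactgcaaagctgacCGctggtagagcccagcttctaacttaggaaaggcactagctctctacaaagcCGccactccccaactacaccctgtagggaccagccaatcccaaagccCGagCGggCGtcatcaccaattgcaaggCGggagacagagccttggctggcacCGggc
The XPC stretch held 19 CG sites, a number that 26.9% of 35116 RefSeq promoter windows of this length reach or exceed, and the DDB2 stretch held 9, which 50.9% reach or exceed. Over the 14 RefSeq starts of the core genes the median was 16 CG sites, with a range of 3 to 27, against a median of 9 over all windows. Searching both strands, GGGCGG was found in 7 of the 14 windows, XPC's among them, and in 40.1% of all windows. The letters CCAAT lay in 3 of the 14, DDB2's printed window among them, and in 28.0% of all windows. The letters TATAAA were in 0 of the 14 windows and in 8.59% of all, and the p53 consensus decamer was in 0 of the 14 and in 4.35% of all. Methylation was not measured in the files used here.

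The transfected genes were examined first. The GADD45A probe ILMN_1694075 was above background on 0 of the 6 arrays labelled with GADD45a, at a signal of 128 to 160, and on 6 of 6 arrays without it, at 744 to 1088. The second GADD45A probe, ILMN_2052208, read 859 to 1127 with GADD45a and 1152 to 1851 without, a log2 difference of -0.39 (SE 0.10, adjusted p = 0.077 by limma). Of 4 ING1 probes 1 was above background, with a log2 difference of -0.03 between the arrays with and without GADD45a. Both sides of that comparison hold ING1b and ING1bΔPHD groups, so it cannot show whether those plasmids were expressed. A comparison of ING1 between groups with and without those plasmids is not given here. The GADD45A probes therefore did not show the transfected gene and ran against the labels. Where the probes lie on the transcripts was not analysed here, and an exchange of all labels with and without GADD45a cannot be told apart from the labelled design in these data. Groups are called by their labels throughout, and every direction below rests on them. Median raw signal was 129 to 133 on the arrays labelled with GADD45a and 132 to 140 on those without, with 14992 to 16038 and 14555 to 16301 probes above background. Markers reported in HEK293 cells were above background on all 12 arrays for 4 of 7 genes (VIM, KRT18, NEFM and NEFL), KRT8 was so on 11, and PAX2 and LHX1 on 0. Of 6 measured genes of other cell types, PTPRC, GFAP, COL3A1 and DES were above background on 0 arrays, COL1A1 on 9 and ALB on 12.

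Of the 16 core probes, 13 probes of 9 genes were above background on at least 2 arrays and entered the tests. Both ERCC4 probes, ILMN_1662897 (raw signal 116 to 161) and ILMN_2192394 (116 to 167), and the ERCC1 probe ILMN_1652369 (123 to 163) were above background on 0 of 12 arrays. ERCC4 encodes the nuclease partner of ERCC1, so this side of the incision pair was read through ERCC1 alone. The tests were limma fits over all 13904 probes that passed the same filter, with Benjamini-Hochberg adjustment within each comparison, and a call is an adjusted p under 0.05. Differences are given on the log2 scale of background-corrected, quantile-normalized intensity.

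XPC, the damage sensor of global genome repair, was lower in every group labelled with GADD45a. Its probe ILMN_1790807 read 1510.3 and 1502 in Control, 1580.2 and 1518 in ING1b and 1312 and 1531 in ING1bΔPHD. It read 711 and 635 in GADD45a, 671 and 579 in GADD45a+ING1b and 672 and 701 in GADD45a+ING1bΔPHD. The 6 arrays with GADD45a and the 6 without did not overlap, and the gap between them, from 711 to 1312, was wider than the spread on either side. After normalization the log2 means (± SD, n = 2) were 10.28 ± 0.01 in Control, 10.37 ± 0.02 in ING1b, 10.29 ± 0.30 in ING1bΔPHD, 9.31 ± 0.06 in GADD45a, 9.24 ± 0.11 in GADD45a+ING1b and 9.26 ± 0.03 in GADD45a+ING1bΔPHD. In order of level the groups ran ING1b, ING1bΔPHD, Control, GADD45a, GADD45a+ING1bΔPHD and GADD45a+ING1b. Only the step from Control to GADD45a separated neighbours by more than their spread. The authors' deposited normalized intensities gave the same separation, at 590 to 670 with GADD45a and 1092 to 1457 without.

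**Figure D1:**
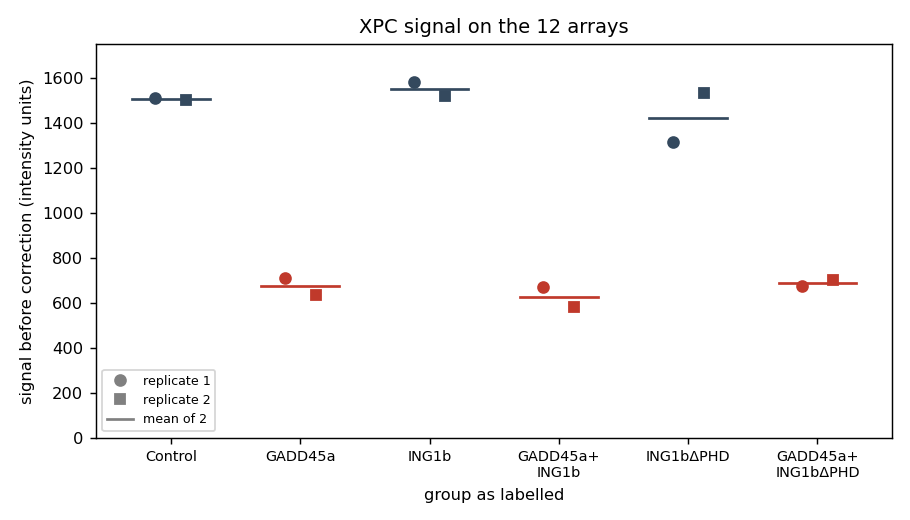
Raw signal of XPC probe ILMN_1790807, in intensity units on a linear axis, by group as labelled; each point is 1 array (circle, replicate 1; square, replicate 2), lines are means of 2 arrays, and red marks groups with GADD45a. The arrays labelled with GADD45a lie at 579 to 711 and those without at 1312 to 1580.2.

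Averaged over the 3 groups with GADD45a against the 3 without, the XPC level was 2.06-fold lower, a log2 difference of -1.04 (SE 0.10, 95% interval -1.25 to -0.83, 6 against 6 arrays, limma adjusted p = 0.000479). XPC was the 1 core probe called of 13, and 2.15% of all tested probes were called in this comparison, 1.36% lower. By p-value it ranked 18 of 13904, and by size of decrease it stood at place 33. On normalized values it was also the 1 core probe of 13 whose 6 arrays with GADD45a all lay below the 6 without, a pattern that 1.38% of all tested probes showed. No core probe had all 6 arrays above, against 0.762% of all. The median difference over the 13 core probes was -0.02, beside -0.01 over all tested probes, and 0.01 without ERCC6, whose probe lay near background. The lower median raw signal of the arrays with GADD45a, given above, ran in the same direction, and its part in the difference was not tested. With each array scaled to its median in place of quantile normalization, all probes had a median of -0.18 in this comparison, and XPC remained called. The XPC call was present under all 22 other settings tried, each array left out in turn among them, with differences from -1.25 to -0.92.

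**Figure D2:**
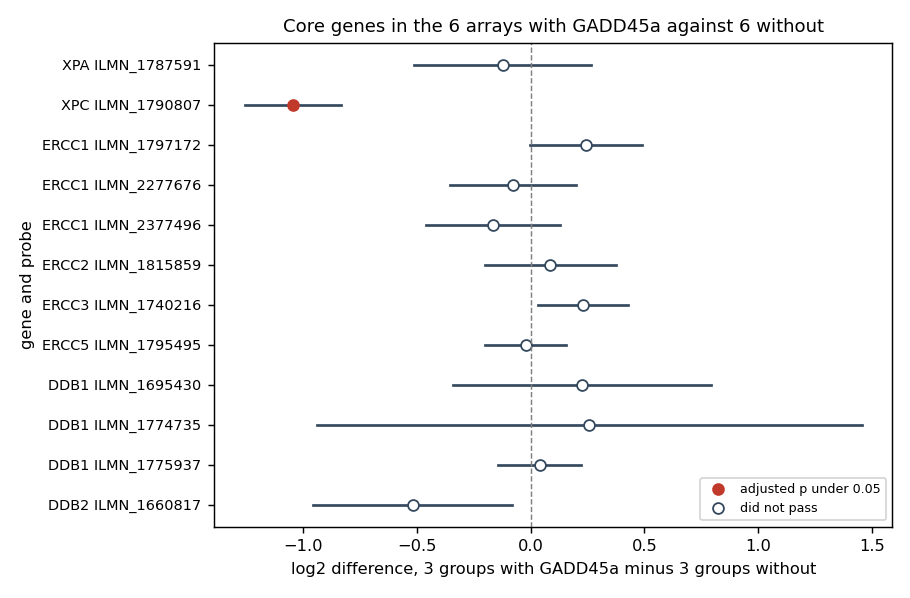
Log2 difference of the 12 tested core probes other than that of ERCC6, mean of the 3 groups labelled with GADD45a minus mean of the 3 groups without. Points are limma estimates from 6 against 6 arrays and bars are their 95% intervals, and the filled point, XPC at -1.04, is the probe with an adjusted p under 0.05.

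The decrease was also measured in 3 pairs of groups that share no array. Against Control, GADD45a alone gave XPC a log2 difference of -0.97 (SE 0.16, limma adjusted p = 0.0341), and it was the 1 core probe called, with 0.698% of all probes called. Against ING1b, GADD45a+ING1b gave -1.13 (limma adjusted p = 0.0229), again with XPC the 1 core probe called and 0.266% of all probes called. Against ING1bΔPHD, GADD45a+ING1bΔPHD gave -1.03 (limma adjusted p = 0.0864, unadjusted p = 9.32e-05). In this last comparison 0 of 13 core probes were called by limma, and 0.0863% of all probes were called. At an unadjusted p under 0.05 the count was 2 of 13, beside 6.21% of all probes. The ING1bΔPHD arrays lay farther apart than those of the other groups, at log2 10.07 and 10.50. The differences themselves were tested: GADD45a's effect on XPC with ING1b differed from that on Control by -0.16 (95% interval -0.68 to 0.36, limma adjusted p = 1), and with ING1bΔPHD by -0.05 (-0.57 to 0.46, limma adjusted p = 0.997). Differences up to these bounds could not be seen with 2 arrays a group. In both of these tests 0 of 13 core probes and 0% of all probes were called by limma, with 0 and 1 core probes at an unadjusted p under 0.05, beside 4.23% and 4.93% of all probes.

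Calls in single pairs could be lost without 1 array. For GADD45a against Control this held also for the arrays of ING1b, GADD45a+ING1b and GADD45a+ING1bΔPHD, which lie outside the pair. Without any of those the difference stayed at -0.97. The GADD45a against Control call was kept without either ING1bΔPHD array and lost without each of the other 10 (limma adjusted p from 0.0522 to 0.223), while the difference stayed between -1.01 and -0.93. The GADD45a+ING1b against ING1b call was lost without any 1 of its own 4 arrays (0.139 to 0.232), where a group is left with 1 array, and the difference stayed between -1.21 and -1.05.

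**Figure D3:**
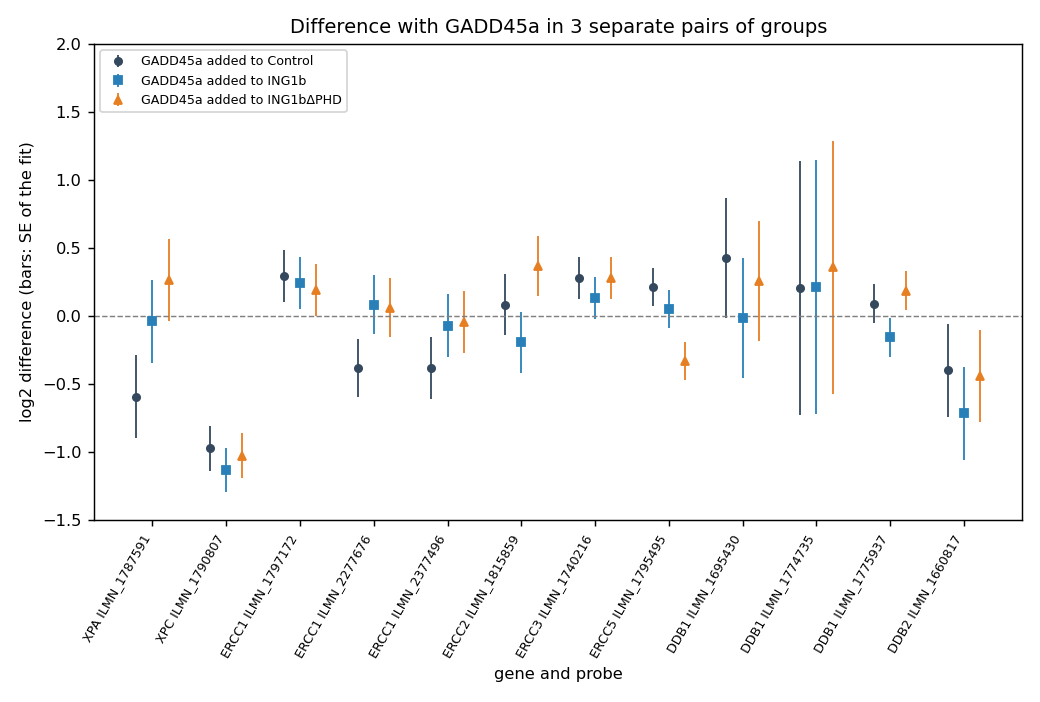
Log2 difference on adding GADD45a to Control, to ING1b and to ING1bΔPHD, for the 12 tested core probes other than that of ERCC6, with bars of 1 SE of the limma fit. The 3 comparisons share no array, and XPC lies between -1.13 and -0.97 in all of them, while DDB1 ILMN_1774735 has the widest bars.

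The combined transfections were also set against the same Control arrays. GADD45a+ING1b gave XPC -1.04 (limma adjusted p = 0.013), with 2.11% of all probes called, and GADD45a+ING1bΔPHD gave -1.02 (limma adjusted p = 0.0427), with 0.417% called. In each, XPC was the 1 core probe called. These comparisons share their controls with that of GADD45a alone and are no separate evidence. The first call was lost without Control replicate 2 or without either of the GADD45a+ING1b arrays (adjusted p from 0.0824 to 0.101). The second was kept without Control replicate 1 or either ING1bΔPHD array and lost without each of the other 9 (0.0721 to 0.218).

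Neither form of ING1b gave XPC a called difference. ING1b against Control was 0.09 (95% interval -0.28 to 0.45, limma adjusted p = 0.91) and ING1bΔPHD against Control was 0.01 (-0.36 to 0.37, limma adjusted p = 0.991). On top of GADD45a, ING1b gave -0.07 (-0.44 to 0.29) and ING1bΔPHD gave -0.05 (-0.41 to 0.32). The full-length form against the form without the PHD domain gave 0.08 (-0.28 to 0.45) without GADD45a and -0.02 (-0.39 to 0.34) with it. The intervals leave room for changes of up to about 0.45 in log2 either way. Of the 13 core probes 0 were called by limma for ING1b against Control, where 0.36% of all probes were called. In that comparison 1 core probe had an unadjusted p under 0.05, beside 9.75% of all probes. The counts were also 0 of 13 for GADD45a+ING1b against GADD45a (0.432% of all called), GADD45a+ING1bΔPHD against GADD45a (0%), ING1b against ING1bΔPHD (0.432%) and GADD45a+ING1b against GADD45a+ING1bΔPHD (0.446%). At an unadjusted p under 0.05, these limma tests held 0, 0, 1 and 1 core probes, beside 8.94%, 5.22%, 7.22% and 8.81% of all probes.

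DDB2, the subunit that recognises ultraviolet lesions for the DDB complex, also had lower raw signal in the arrays labelled with GADD45a. Its probe ILMN_1660817 read 245 and 328 in Control, 282 and 302 in ING1b and 241 and 266 in ING1bΔPHD. It read 196 and 232 in GADD45a, 181 and 206 in GADD45a+ING1b and 180.4 and 226 in GADD45a+ING1bΔPHD. On raw signal the arrays with and without GADD45a did not overlap, with 232 the highest with it and 241 the lowest without. After normalization they did, since GADD45a replicate 2 stood at 7.23 and Control replicate 1 at 6.92. How many of all probes separate in this way on raw signal was not counted. Lower raw medians with GADD45a were not particular to DDB2. They were 198 with and 228 without for XPA, 478 and 540 for ERCC5, and 8041 and 8918 for DDB1 ILMN_1775937. DDB1 ILMN_1695430 and ILMN_1774735 went the other way. For DDB2, replicate 2 was higher than replicate 1 in all 6 groups, by 0.26 to 0.80 in log2. The pooled difference was -0.52 (SE 0.20, 95% interval -0.96 to -0.08) and was not called (limma adjusted p = 0.208). With the replicate number as a block DDB2 was called (limma adjusted p = 0.0133), a fit that called 7.05% of all probes. With GADD45a+ING1b against Control it was -0.65 (limma adjusted p = 0.336, and 0.0383 with the block, where 7.39% of all probes were called). In the 3 separate pairs the differences were -0.40, -0.72 and -0.44, with limma adjusted p of 0.621, 0.841 and 0.937. The first of these, GADD45a against Control, was 0.003 without Control replicate 2, the highest array for DDB2. Without Control replicate 1 it was -0.80.

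DDB1, which links DDB2 to the CUL4 ubiquitin ligase, had 3 tested probes that differed in behaviour. The bright probe ILMN_1775937 read 7233 to 9480.1 on the 12 arrays, and its pooled difference was 0.04 (95% interval -0.14 to 0.22). The probe ILMN_1774735 read 291 to 330 on the 6 replicate 1 arrays and 153 to 193 on the 6 replicate 2 arrays, so that it separated the replicate numbers and not the groups. Its value was lower in replicate 2 in all 6 groups, and on 3 of those 6 replicate 2 arrays it was not above background, so no size is given. The remaining one, ILMN_1695430, was also lower in replicate 2 in all 6 groups, by 0.30 to 1.27, while the bright probe moved by -0.03 to 0.24. No DDB1 probe was called in any of the 14 comparisons. ERCC6, the sensor of transcription-coupled repair, read 130.1 to 170.02 and was above background on 2 arrays, 1 of Control and 1 of GADD45a, so no difference is given for it here or in the plots of differences.

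Among the factors that open and check the DNA, none was called in any comparison. XPA, the scaffold that checks the lesion, read 256 and 332 in Control and 184 to 245 on the other 10 arrays. On raw signal both Control arrays lay above all others, and replicate 2 was the higher. After normalization Control replicate 1, at 7.02, lay below GADD45a replicate 2 at 7.03 and GADD45a+ING1bΔPHD replicate 2 at 7.23. The log2 mean was 7.38 ± 0.51 in Control and 6.64 to 6.91 in the other groups. The differences from Control were -0.59 for GADD45a, -0.67 for ING1b, -0.71 for GADD45a+ING1b, -0.74 for ING1bΔPHD and -0.48 for GADD45a+ING1bΔPHD, with limma adjusted p from 0.246 to 0.516. Without Control replicate 2 they were -0.23, -0.31, -0.35, -0.38 and -0.12, so each lay nearer to 0 without this array, and without Control replicate 1 they ran from -1.10 to -0.84. With GADD45a against without, XPA differed by -0.12 (limma adjusted p = 0.775).

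ERCC3, the DNA translocase of TFIIH, read 702 to 994. Its log2 mean was 9.31 in Control and 9.53 to 9.83 elsewhere, and its pooled difference with GADD45a was 0.23 (95% interval 0.03 to 0.43, limma adjusted p = 0.213), which became 0.04 with median scaling. The highest group was GADD45a+ING1bΔPHD, at 0.52 above Control (limma adjusted p = 0.15). ERCC2, the TFIIH helicase, read 185 to 285. Its GADD45a+ING1b group stood lowest at log2 6.64 and its GADD45a+ING1bΔPHD group highest at 7.29, a difference of -0.65 (SE 0.22, limma unadjusted p = 0.0153, adjusted p = 0.387).

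Of the incision genes, ERCC5 and ERCC1 had values that set groups apart without a call. ERCC5, the nuclease that cuts on the 3′ side of the lesion, read 648 and 615 in ING1bΔPHD and 421 to 560.3 on the other 10 arrays. Both ING1bΔPHD arrays were therefore above all others, a pattern whose share over all probes was not counted. On the log2 scale these arrays averaged 8.96 against 8.46 in Control. The difference of 0.50 (SE 0.14) had a limma unadjusted p of 0.00483 and an adjusted p of 0.304. In GADD45a+ING1bΔPHD the readings were 493 and 465, a log2 difference of -0.33 from ING1bΔPHD (limma adjusted p = 0.783). The test of whether GADD45a acted differently with ING1bΔPHD than on Control gave -0.54 for ERCC5 (limma unadjusted p = 0.0209, adjusted p = 0.986).

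ERCC1, the DNA-binding partner of the ERCC4 nuclease, was read alike by 2 of its 3 tested probes. ILMN_2277676 read 830 and 1234 in Control and 568 to 784 elsewhere, and ILMN_2377496 read 766 and 1206 in Control and 533 to 793 elsewhere. Control replicate 2 was far above every other array on both. ING1bΔPHD against Control gave -0.69 and -0.63 (limma adjusted p = 0.338 and 0.395), and GADD45a+ING1bΔPHD against Control gave -0.63 and -0.67 (0.189 and 0.192). Without Control replicate 2 the ING1bΔPHD differences were -0.35 and -0.23 and those of GADD45a+ING1bΔPHD -0.28 and -0.27. Without Control replicate 1, which leaves the higher control array alone, GADD45a+ING1bΔPHD reached -0.98 and -1.08 with limma adjusted p of 0.0378 and 0.0301. ILMN_2377496 was then also called in ING1bΔPHD (-1.03, limma adjusted p = 0.0489) and in GADD45a+ING1b (-0.90, 0.033) against Control. In these fits the spread of the lone control array was taken from the remaining groups. The dimmest of the tested ERCC1 probes, ILMN_1797172, read 211 to 264 and did not set Control apart. For ING1bΔPHD against Control 0 of 13 core probes and 0% of all probes were called by limma. At an unadjusted p under 0.05 the count was 4 of 13 (XPA, both of these ERCC1 probes and ERCC5), beside 11.3% of all probes.

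**Figure D4:**
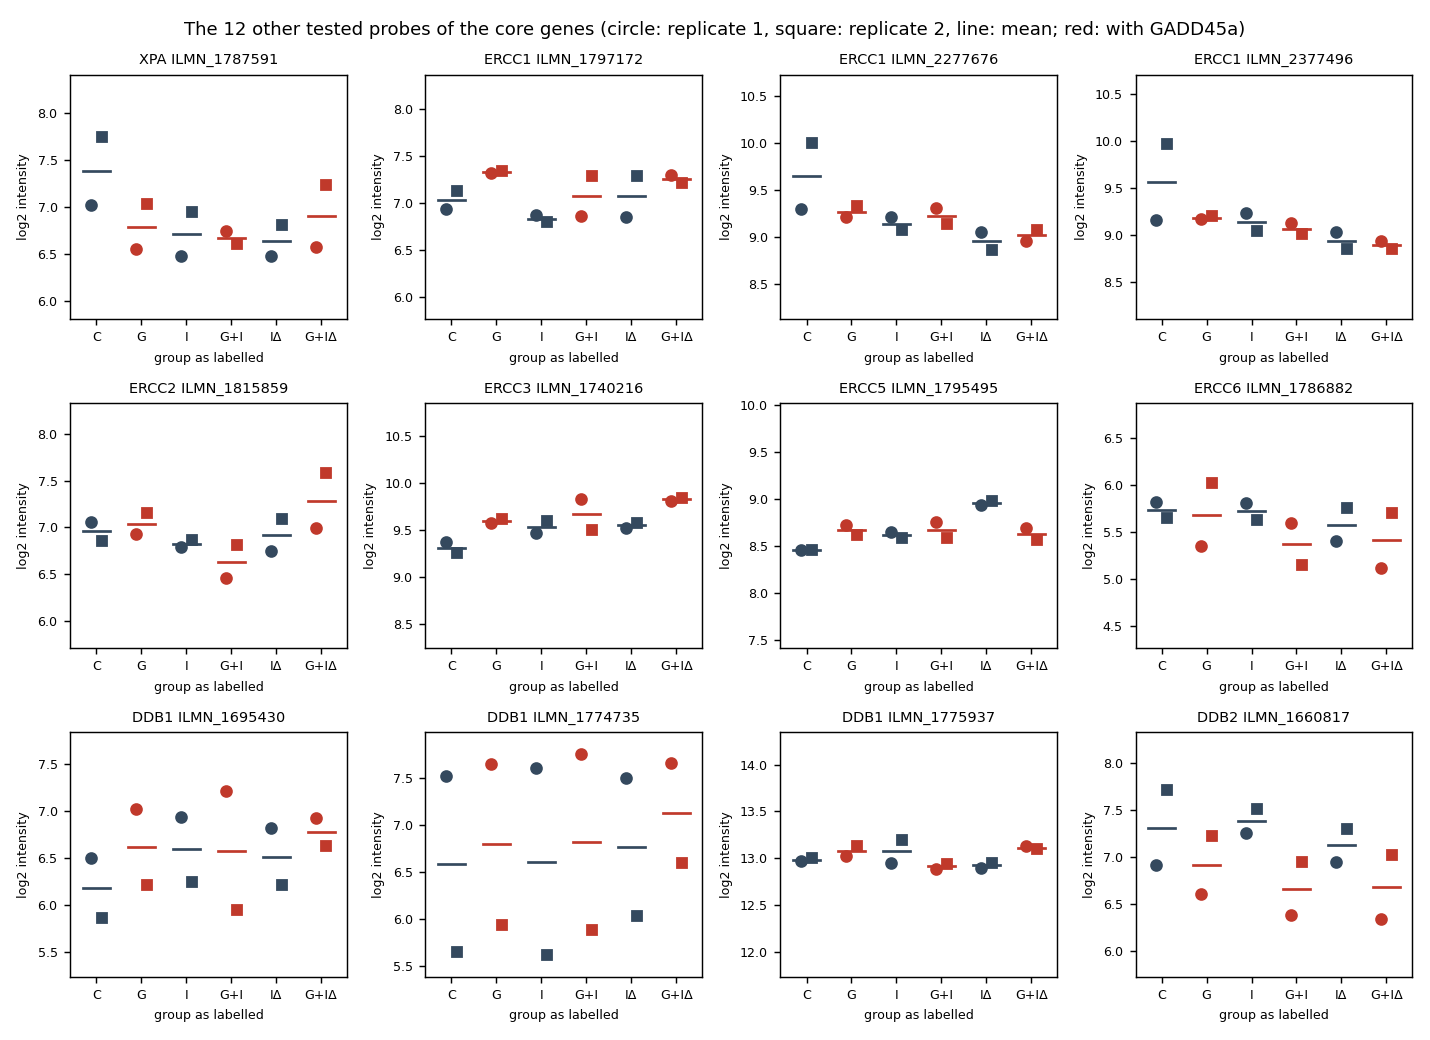
Log2 normalized intensity of the 12 tested core probes other than XPC, by group (C, Control; G, GADD45a; I, ING1b; IΔ, ING1bΔPHD, with + for combinations). Circles are replicate 1 and squares replicate 2, lines are means of 2 arrays, and each panel spans the same number of log2 units. DDB1 ILMN_1774735 splits by replicate number, and Control replicate 2 is the highest array for XPA, DDB2 and both brighter ERCC1 probes.

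Around the core genes, 41 further genes of the pathway were examined, of which 38 were measured by 55 tested probes. With GADD45a against without, 1 of the 55 probes was called higher and 2 lower, while 2.15% of all probes were called and 1.36% called lower. Their median difference was -0.00 beside -0.01 over all probes. POLD1, the catalytic subunit of DNA polymerase delta that fills repair gaps, read 352 to 514 with GADD45a and 642 to 889 without, without overlap (log2 -0.79, SE 0.11, limma adjusted p = 0.0055). XAB2, an XPA-binding protein of transcription-coupled repair and splicing, read 533 to 709.9 with GADD45a and 872 to 1139 without (log2 -0.59, SE 0.11, limma adjusted p = 0.0261). The sliding clamp PCNA was called higher by ILMN_1706958 (log2 0.37, SE 0.08, limma adjusted p = 0.049), while its other probe ILMN_1694177 gave -0.11. On raw signal the called probe read 365 to 420.5 with GADD45a and 319 to 431 without, so these ranges overlapped. The same PCNA probe was called in GADD45a against Control (0.75, limma adjusted p = 0.0495) and in GADD45a+ING1b against Control (0.74, 0.0323), where POLD1 was also called (-1.08, 0.0195). In the other 11 comparisons 0 of the 55 were called by limma.

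Because XPC and DDB2 are known p53 targets, 23 other p53 targets were counted, of which 19 were measured by 26 probes. With GADD45a against without, 4 of the 26 probes were called lower and 0 higher, while 1.36% of all probes were called lower. Their median was -0.17 beside -0.01 over all probes. The fit with the replicate number as a block called 7.05% of all probes. In it CCNG1 (-0.35), TP53INP1 ILMN_2214197 (-0.53) and ZMAT3 ILMN_1865764 (-0.32) were also called lower (limma adjusted p = 0.0477, 0.0422 and 0.0404). The other TP53INP1 probe gave -0.19 and the other ZMAT3 probes -0.20 and 0.20, without a call. Of the 4 called without the block, SPATA18, a mitochondrial quality control protein, had a log2 difference of -0.70 (limma adjusted p = 0.0231). PHLDA3, an inhibitor of AKT, had -0.51 (0.0422), and SESN1, a stress-induced inhibitor of mTORC1 signalling, had -0.43 (0.0328). CDKN1A (-0.15, limma adjusted p = 0.431) and MDM2 (0.07, 0.912), of the same list, were not called by either fit. GDF15, a secreted stress cytokine, read 134 to 166 with GADD45a and 174 to 452 without, and its probe was above background on 2 of the 6 arrays with GADD45a and on 6 of 6 without. GDF15 was called lower with GADD45a (limma adjusted p = 0.00719). With each array's lowest signal above background as the floor, it was at least 2.07-fold lower, a bound that was not itself tested. In GADD45a+ING1b against Control, where 2.11% of all probes were called, 2 of the 26 were called, PHLDA3 at -0.92 and SPATA18 at -1.12. In GADD45a+ING1b against ING1b, where 0.266% of all probes were called, 1 was called. This was GDF15 (limma adjusted p = 0.0393), above background on 1 of the 2 GADD45a+ING1b arrays. By the same floor it was at least 4.1-fold lower there, a bound that was also not tested.

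Over the 12 arrays the probes most like XPC in pattern were those of SAC3D1 (Pearson r = 0.98), GADD45A ILMN_1694075 (0.97), FOXN4 (0.97), UCK1 (0.96) and NDUFA13 (0.96). The most opposed were those of GGTLC1 (-0.94), RNF103 (-0.93), IL12A (-0.92), EIF4E2 (-0.91) and CTNNAL1 (-0.91). These values describe a ranking over probes that share the same arrays and the same gap between arrays with and without GADD45a. UCK1 and GADD45A ILMN_1694075 were above background on 0 arrays with GADD45a, and GGTLC1 on 0 arrays without, so part of their values lies at the floor. RNF103 (limma adjusted p = 0.057) and EIF4E2 (0.127) were not called between the arrays with and without GADD45a. LSM3, whose RefSeq start lies 216 bases from that of XPC on the opposite strand and which was looked at after the XPC values were seen, had differences of -0.15 (SE 0.09, limma adjusted p = 0.399) and -0.07 (SE 0.09, 0.745) on its 2 probes. TKFC, which starts 123 bases from DDB1 and was chosen in the same way, gave -0.28 (SE 0.30, limma adjusted p = 0.683).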

How the data were processed

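The scanner table was deposited by the authors as intensity, the mean bead signal of each probe, and as deposited is not normalized between arrays; beside it stands the authors' deposited detection p-value of each probe. A second deposited table holds the authors' normalized intensity. GenomeStudio 2011.1 was used, per the submitters' processing notes, and its background and averaging options are unknown here. Per the labels, RNA was labelled by the Ambion TotalPrep kit.

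Signals were background-corrected by nec in limma 3.58.1 (R 4.3.3), with the negative controls inferred from detection p-values, raised by an offset of 16, quantile-normalized and put on the log2 scale. Probes with detection p under 0.01 on at least 2 of 12 arrays and 1 gene symbol were tested singly (13904 probes of 10645 genes). Of 47323 probes, 30113 had 1 symbol in the platform annotation, 8 several and 17202 none, and 30074 matched RefSeq by gene ID. The 3910 detected probes without 1 symbol were left out. limma was fitted on all 12 arrays with 1 mean per group, by lmFit and eBayes, and Benjamini-Hochberg adjustment within each of 14 comparisons. p-values measure the spread between transfected cultures, and precision is limited by 2 arrays a group.

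The members and gene lists were chosen with earlier results of these data known. Named were all core probes, the transfected genes, called genes of the pathway and p53 lists (at most 6 per comparison), and the 5 probes most like XPC and the 5 most opposed. CDKN1A, MDM2 and the p53 targets called only with the block were named besides. Same-numbered replicates deviated together in all 15 pairs of groups (r 0.23 to 0.47). The main fits did not use this pairing, so the shift between replicate numbers stayed in their error. Fits with the number as a block are given where they changed a core call, and for p53 targets in the pooled comparison. The fit was tested on simulated data. Tried as alternatives were no background correction, another offset, scaling, filters, probe choice, the authors' values, other eBayes settings, the block and each array left out.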

Additional observations from a re-analysis of the deposited data

How the results depend on the processing

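XPC was lower with GADD45a under all 22 alternatives (10 settings and 12 single arrays left out), and in the comparison of 3 groups with 3 it was called in each (adjusted p from 1.15e-05 to 0.00339). It was called under 11 of 22 for GADD45a against Control, 19 for GADD45a+ING1b against Control, 11 for GADD45a+ING1bΔPHD against Control, 18 for GADD45a+ING1b against ING1b and 4 for GADD45a+ING1bΔPHD against ING1bΔPHD. Of the 13 core probes, GADD45a against Control had 0 called with the authors' deposited values (XPC -0.94, limma adjusted p = 0.0503), and GADD45a+ING1bΔPHD against Control had 0 with no detection filter (0.0584) and with all detected probes (0.0526). GADD45a+ING1bΔPHD against ING1bΔPHD had 1, XPC, with no background correction (0.013), an offset of 50 (0.043), median scaling (0.0434) and a robust trended eBayes (0.0138). DDB2 joined XPC, making 2, with the replicate block in GADD45a+ING1b against Control and in the pooled comparison, and with median scaling in the pooled comparison (-0.70, 0.0355). The block changed no other core call. With single arrays left out, the core counts ran 0 to 1 for GADD45a against Control, 0 to 2 for GADD45a+ING1b, 0 to 1 for ING1bΔPHD and 0 to 3 for GADD45a+ING1bΔPHD against Control, 0 to 1 for GADD45a+ING1b against ING1b, 1 in the pooled comparison and 0 in the others. Leaving out an array leaves fewer samples; other causes were not tested. Over all probes the pooled comparison called 110 higher and 189 lower, against 79 and 1780 with median scaling, 208 and 216 with no background correction and 980 in all with the block. GADD45a against Control called 31 higher and 66 lower, against 27 and 364 with median scaling and 419 in all with the block, and 7 to 246 with arrays left out. The other counts ranged 48 to 1640 (294 as reported) for GADD45a+ING1b, 2 to 587 (58) for GADD45a+ING1bΔPHD, 7 to 100 (50) for ING1b and 0 to 76 (0, the 76 without Control replicate 1) for ING1bΔPHD against Control, and 10 to 72 (37) for GADD45a+ING1b against ING1b. Median scaling also turned the split from 171 higher and 123 lower to 145 and 1495 for GADD45a+ING1b, and from 27 and 31 to 26 and 221 for GADD45a+ING1bΔPHD, against Control. No called core value changed sign. Probes near background (ERCC6, ERCC2, XPA, DDB2) limit what could be seen for those genes.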
